A study of Mus musculus with 16 samples.

Results

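The gland by tissue layer interaction compares, for each gene, the difference between parotid and submandibular gland in epithelium with the same difference in mesenchyme. It was computed over all 16 libraries of the series, in 4 groups of 4, as the log2 fold change of parotid over submandibular epithelium minus that of parotid over submandibular mesenchyme. A positive value therefore means that the parotid excess was larger in epithelium, and a negative value that it was larger in mesenchyme. Of 18191 genes tested, 3799 (20.9%) passed edgeR's quasi-likelihood test for this contrast with a Benjamini-Hochberg adjusted p under 0.05. Among them, 482 genes (2.65% of those tested) differed between the glands in opposite directions in the layers. A further 440 (2.42%) differed by at least 2-fold in epithelium and were not called in mesenchyme, and 1061 (5.83%) did so in mesenchyme and were not called in epithelium.

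All 4 groups came from wild-type mouse embryos of the outbred ICR strain at embryonic day 13: epithelium and mesenchyme, each from parotid and from submandibular gland, with no treatment named. The 4 samples of each group are independent biological replicates according to the labels, which do not say how many embryos went into a sample. Total RNA of the separated tissue was copied to full-length cDNA and sequenced. The design text also speaks of glands kept in culture, whereas the titles and protocol speak of tissue taken at day 13, so the history of the tissue before RNA isolation is known only that far. Total gene counts ran from 21307466 to 23885698 in parotid epithelium, 19090077 to 27646844 in submandibular epithelium, 19080629 to 25846015 in parotid mesenchyme and 16912258 to 18583164 in submandibular mesenchyme.

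A salivary gland begins as an epithelial bud that grows into the mesenchyme around it and branches. The layers signal to each other through growth factors such as FGF, EGF, WNT, BMP and EDA, through retinoic acid, and through the basement membrane that lies between them, and classical recombination experiments showed that mesenchyme instructs much of the branching pattern.

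The separation of the layers was checked with marker lists. The summed level of 24 epithelial genes in mesenchyme was 1.16% of that in epithelium in the parotid and 1.39% in the submandibular gland. For 22 mesenchymal genes the level in epithelium was 2.24% and 3.21% of that in mesenchyme. Levels are given in CPM, read counts relative to the TMM-scaled library total, and means carry the SD over the 4 libraries of a group. The mesenchymal sum was 616 to 947 CPM in parotid and 398 to 847 CPM in submandibular epithelium. In the mesenchymes it was 28864 to 42374 and 17495 to 19867 CPM. In epithelium, 9 of the 22 were higher and 1 was lower in the parotid, against 11.2% and 9.72% of all genes. The part of mesenchymal RNA in the epithelial differences was not tested. Parotid mesenchyme replicate 1 carried more epithelial transcripts (summed level 83 CPM) than the other 3 libraries of its group (33.5 to 37.3 CPM), and parotid mesenchyme replicate 4 had less skeletal muscle (475 CPM against 1695 to 2014). Erythroid genes summed to 495 CPM in parotid epithelium replicate 4 and to 739 CPM in submandibular epithelium replicate 1, against at most 151 in the other epithelial libraries. In alternatives chosen after the data had been seen, leaving out these erythroid-rich libraries lowered the opposite genes to 295, of which 269 were among the 482, and leaving out parotid mesenchyme replicates 1 and 4 gave 379, of which 340 were. In bulk tissue, fewer cells of a type and less RNA per cell cannot be told apart.

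The gland difference was called in 3801 genes (20.9%) in epithelium, 2033 of them higher (11.2%) and 1768 lower (9.72%) in the parotid. In mesenchyme it was called in 6282 genes (34.5%), 3785 higher (20.8%) and 2497 lower (13.7%). Of the genes called for the interaction, 1577 (8.67% of those tested) were higher, with the larger parotid excess in epithelium, and 2222 (12.2%) were lower; 930 and 1274 of these had an interaction of at least 2-fold. Without the TMM scaling factor the split turned, to 2380 higher and 1599 lower, as the median interaction over all genes moved from -0.04 to 0.10. With a filter of 1 CPM in 4 libraries 1864 were higher and 1841 lower, and with no filter beyond 1 count 1479 and 1662. The split was 1447 and 1517 without the erythroid-rich libraries, and 1408 and 1477 without parotid mesenchyme replicates 1 and 4. RLE size factors gave 1652 and 2105, and DESeq2 1990 and 2454. Most called genes passed the threshold for a gland difference in 1 layer only, 856 in epithelium and 2041 in mesenchyme at any size. A missed threshold in the other layer does not show a lack of difference there. A further 204 genes (1.12%) differed the same way in both layers by unequal amounts, and 216 passed the interaction test with neither layer called. Across genes, the gland differences of the layers had a Pearson r of 0.18 and 59.2% had the same sign in both, as a description, since genes are not independent replicates.

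**Figure D1:**
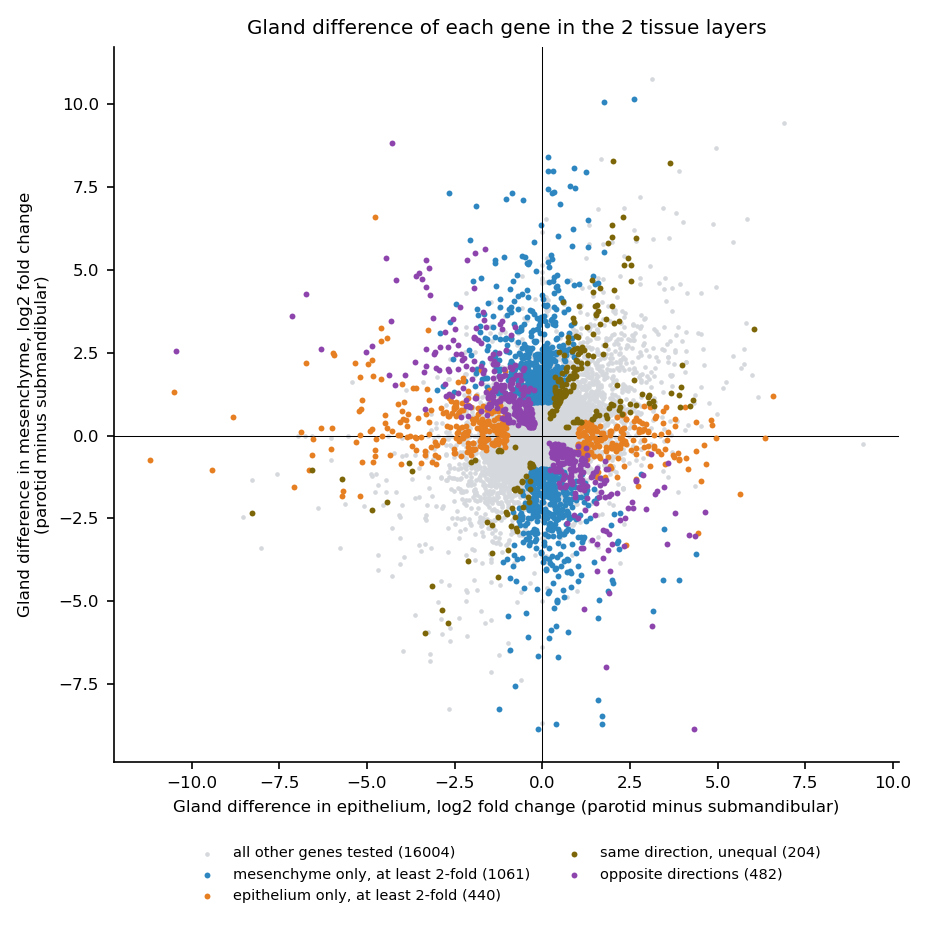
Gland difference of each of 18191 genes in epithelium (x axis) and mesenchyme (y axis), as log2 fold changes of parotid over submandibular gland; colours mark the classes given in the text with their numbers. The 482 opposite genes fill the upper left and lower right quadrants, and the genes of 1 layer lie along the axes.

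Of the 482 opposite genes, 284 (1.56% of genes tested) were lower in parotid epithelium and higher in parotid mesenchyme, and 198 (1.09%) were the reverse. Without the scaling factor 229 of 516 were lower in parotid epithelium. With a filter of 1 CPM in 4 libraries it was 252 of 501, and with no filter beyond 1 count 180 of 352. It was 207 of 415 without submandibular epithelium replicate 3 and 151 of 295 without the erythroid-rich libraries. Without parotid mesenchyme replicates 1 and 4 it was 196 of 379. RLE size factors gave 270 of 484 and limma-voom 274 of 487. An excess in 1 direction thus depended on the setting. The median gland difference of the 482, regardless of sign, was 0.92 in epithelium and 1.06 in mesenchyme on the log2 scale. Of them, 189 genes, 72 higher and 117 lower in parotid epithelium, differed at least 2-fold in both layers. When each library was left out in turn, 241 of the 482 were opposite in all 16 fits. By group mean, 164 of the 482 genes were highest in parotid mesenchyme and 134 in submandibular mesenchyme, against 64 and 120 in the epithelia. The same shares were not computed over all genes tested, so these counts have no background.

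Among opposite genes with at least 5 CPM in the higher gland of each layer, 5 were named in each direction by the size of the smaller of their differences. In the direction of a higher parotid epithelium, Slc6a14 (chrX:21714896-21742355), a transporter of neutral and basic amino acids, stood in epithelium at 8.31, 6.1, 7.4 and 6.75 CPM in the parotid and at 0.575, 0.242, 0.053 and 1.06 CPM in the submandibular gland. In mesenchyme it stood at 3.43, 3.18, 3.4 and 2.75 CPM in the parotid and 18.6, 14.2, 21.2 and 10.5 CPM in the submandibular gland. All parotid epithelial libraries lay above the submandibular ones, and all parotid mesenchymal libraries below. The log2 fold change was 3.80 (SE 0.42) in epithelium and -2.34 (SE 0.36) in mesenchyme (edgeR adjusted p = 9.8e-07 for the interaction). Pthlh (chr6:147252101-147264183), which encodes parathyroid hormone-related protein, a signal between epithelium and mesenchyme in other glands, read 22.8, 21.6, 32.6 and 33.9 CPM in parotid and 4.64, 6.45, 4.14 and 8.65 CPM in submandibular epithelium, and 2.15, 10.8, 1.5 and 10.8 against 44.4, 41.8, 28.9 and 32.7 CPM in the mesenchymes. Its libraries did not overlap in either layer, although those of parotid mesenchyme varied widely (log2 fold changes 2.21 and -2.55, edgeR adjusted p = 0.0002). Enpp2 (chr15:54838901-54952892), which makes the lipid signal lysophosphatidic acid, averaged 11.6 ± 3.91 (SD, n = 4) against 3.17 ± 2.66 CPM in epithelium, and 16.6 ± 5.17 against 58.9 ± 9.75 CPM in mesenchyme. The glucose transporter gene Slc2a3 (chr6:122727809-122801640) was likewise 3.85-fold higher in parotid epithelium and 3.39-fold lower in parotid mesenchyme, with means of 14.8 ± 3.85 against 3.85 ± 2.46 CPM and of 15.5 ± 1.22 against 52.5 ± 6.16 CPM. Both genes had non-overlapping libraries in both layers. Col4a6, the fifth, is described with the basement membrane.

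In the other direction stood Fst (chr13:114452290-114458951), which encodes follistatin, a secreted inhibitor of activins and some BMPs. It read 3.6, 2.35, 3.87 and 3.85 CPM in parotid and 14.3, 12.2, 27.8 and 6.56 CPM in submandibular epithelium. In mesenchyme the order turned, with 267, 338, 343 and 523 CPM in the parotid against 13, 8.59, 8.21 and 7.73 CPM in the submandibular gland. The mesenchymal gap (log2 fold change 5.29, SE 0.34) was larger than the epithelial one (-2.14, SE 0.37; edgeR adjusted p = 2.1e-07 for the interaction), and neither pair of groups overlapped. Tenm2 (chr11:36006656-37235964), a teneurin that joins cells through latrophilin receptors, read 0.636, 0.281, 0.377 and 1.4 CPM in parotid and 6.4, 3.39, 14.6 and 2.82 CPM in submandibular epithelium, and 101, 94.7, 148 and 183 against 5.05, 5.34, 6.35 and 7.02 CPM in mesenchyme. Every parotid library was low in epithelium and high in mesenchyme (log2 fold changes -3.31 and 4.47, edgeR adjusted p = 3e-06). Thsd4 (chr9:59966931-60522046), a matrix protein that binds fibrillin microfibrils, was 8.17-fold lower in parotid epithelium (5.61 ± 1.09 against 45.8 ± 13.2 CPM) and 4.07-fold higher in parotid mesenchyme (86.9 ± 12.9 against 21.3 ± 2.73 CPM). Hspb1 (chr5:135887919-135889563), a small heat shock protein gene, was 7.79-fold lower (3.99 ± 0.267 against 31.1 ± 14.1 CPM) and 3.93-fold higher (16.7 ± 4.91 against 4.25 ± 1.23 CPM) in the same order. Of 17 immediate early and heat shock genes tested, a list that does not hold Hspb1 and that responds to tissue handling, 4 were lower for the interaction (median -0.92, against 12.2% of all genes) and 5 were lower in parotid epithelium (9.72% of all genes). Their summed level was 1062 to 2327 CPM in parotid and 1926 to 4144 CPM in submandibular epithelium, and 2983 to 4355 and 3652 to 4592 CPM in the mesenchymes. Mitochondrially encoded genes were lower in parotid epithelium in 9 of 10 tested, with sums of 3553 to 4686 against 5487 to 9359 CPM in epithelium and 3997 to 5799 against 5354 to 6270 CPM in mesenchyme. The part of handling or RNA quality in the epithelial differences was not tested. Rgs5 (chr1:169655501-169695813), a regulator of G-protein signalling found in pericytes, read 0.89, 1.78, 0.707 and 8.1 CPM in parotid and 11.1, 22.3, 9.34 and 10.4 CPM in submandibular epithelium, and 8.37, 22, 9.75 and 21 against 2.65, 3.7, 2.27 and 3.43 CPM in mesenchyme. No groups overlapped, but parotid epithelium replicate 4 came close to the submandibular libraries. Rgs5 lost the opposite call when replicate 2 or 3 of parotid epithelium or replicate 2 of submandibular epithelium was left out.

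**Figure D2:**
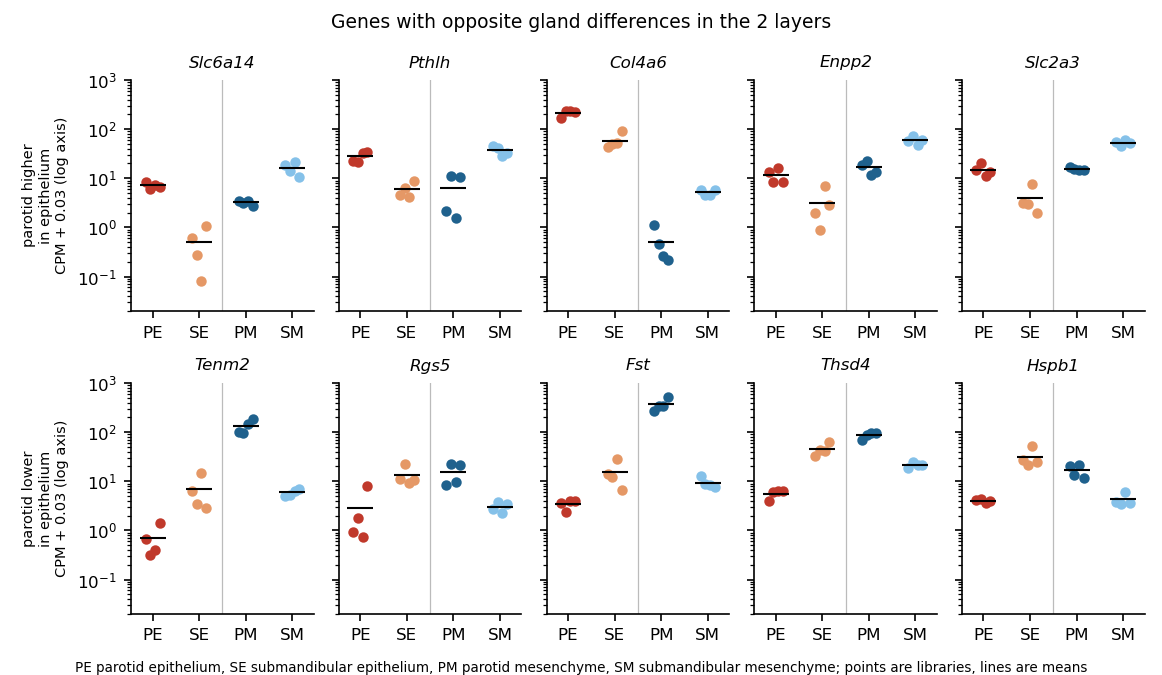
CPM of the 10 opposite genes in each library (points; log axis after adding 0.03) with the group means (lines), for parotid epithelium (PE), submandibular epithelium (SE), parotid mesenchyme (PM) and submandibular mesenchyme (SM). In the upper row the parotid libraries lie above the submandibular ones in epithelium and below them in mesenchyme, and in the lower row the reverse.

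Gene lists for pathways and cell types were examined next. Up to 4 called members of each list with the largest interactions were named by rule, and members named beyond these were chosen after their values were seen. In the EGF, neuregulin and EDA pathways, which drive growth and branching of gland epithelium, 12 of 18 tested members were called for the interaction, against 20.9% of all genes. Of these, 4 were higher and 8 lower, 6 were opposite, and the median interaction was -0.84 against -0.04 over all genes. The ligands Areg, Ereg and Btc, which bind the EGF receptor, lie next to each other in the order of tested genes on chromosome 5, Areg at chr5:91139599-91148432, Ereg at chr5:91074622-91093646 and Btc at chr5:91357261-91402994. All were lower in parotid epithelium and higher in parotid mesenchyme. Promoters of Areg and Btc are shown because both genes moved alike and both promoters held the E-box CAGCTG, written in capitals. They are the 250 bases before each RefSeq start in GRCm38.p6, printed 5′ to 3′ in the direction of the gene, chr5:91139349-91139598 on the plus strand for Areg and chr5:91402995-91403244 on the minus strand for Btc.
Areg promoter: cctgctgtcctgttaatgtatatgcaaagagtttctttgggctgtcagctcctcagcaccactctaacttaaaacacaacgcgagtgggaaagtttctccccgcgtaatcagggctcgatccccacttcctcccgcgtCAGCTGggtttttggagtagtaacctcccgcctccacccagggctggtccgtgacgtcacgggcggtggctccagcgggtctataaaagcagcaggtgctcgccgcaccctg
Btc promoter: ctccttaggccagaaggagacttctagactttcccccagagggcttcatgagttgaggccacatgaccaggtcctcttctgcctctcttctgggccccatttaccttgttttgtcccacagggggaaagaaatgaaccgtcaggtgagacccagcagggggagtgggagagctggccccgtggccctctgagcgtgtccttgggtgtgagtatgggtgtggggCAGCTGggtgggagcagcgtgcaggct
The E-box lies 112 bases before the start of Areg and 27 before that of Btc. It was found in 13.0% of all 32851 RefSeq promoters of this length and in 14.2% of the 485 promoters of opposite genes. Each motif was searched on both strands, and the others were the forkhead motif TGTTTAC (3.17% of all promoters), the homeobox motif TAATTA (4.84%), the TCF/LEF motif CTTTGAT (3.21%) and AGATAA, read by factors of the Gata family (9.99%). None of these matched either promoter, and Ereg was not in the table. Areg (amphiregulin) read 0.0424, 0, 0.236 and 0.145 CPM in parotid and 2.8, 1.77, 1.64 and 2.2 CPM in submandibular epithelium, and 6.6, 6.79, 11.9 and 32 against 0, 0, 0.0516 and 0.0545 CPM in mesenchyme. With 2 counts in all in submandibular mesenchyme, its parotid level there was 571 times higher (95% exact counting interval 158 to 4721). Areg was thus higher in mesenchyme in the parotid and higher in epithelium in the submandibular gland, without overlap (edgeR adjusted p = 3.1e-07 for the interaction). Ereg (epiregulin) read 0.0424, 0.0469, 0.189 and 0 CPM in parotid and 3.42, 1.29, 2.23 and 1.65 CPM in submandibular epithelium, and 0.215, 0.329, 0.316 and 1.59 against 0.102, 0.2, 0 and 0.0545 CPM in mesenchyme. The mesenchymal levels were all low, and the opposite call was lost without parotid mesenchyme replicate 4 or submandibular mesenchyme replicate 3. Btc (betacellulin) read 0.297, 0.61, 1.6 and 1.16 CPM in parotid and 3.13, 2.22, 4.35 and 1.61 CPM in submandibular epithelium, and 3.38, 4.77, 5.57 and 5.27 against 0, 0.0499, 0.155 and 0.163 CPM in mesenchyme. The epithelial groups of Btc nearly touched and the mesenchymal groups lay far apart (edgeR adjusted p = 4.4e-06). It was no longer called opposite when replicate 2 of parotid epithelium or replicate 1 or 3 of submandibular epithelium was left out.

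Of the receptors, Egfr went the same way as these ligands. Egfr (chr11:16752203-16918158), which encodes the EGF receptor, read 41.8, 33.2, 33.9 and 34.2 CPM in parotid and 62.3, 58.4, 66.3 and 59.5 CPM in submandibular epithelium, and 107, 112, 171 and 129 against 22.6, 28, 22 and 47.5 CPM in mesenchyme. The gland groups were apart in both layers, with log2 fold changes of -0.78 (SE 0.20) in epithelium and 2.11 (SE 0.20) in mesenchyme. Nrg1, a neuregulin that binds ERBB3 and ERBB4, was 10.9-fold higher in parotid mesenchyme (70.1 to 88.1 against 5.87 to 10.1 CPM) and lower in parotid epithelium (1.31 ± 0.458 against 2.98 ± 1.69 CPM). Its epithelial groups overlapped, and the opposite call was lost on leaving out any library except parotid epithelium replicate 1, parotid mesenchyme replicate 4, submandibular epithelium replicate 4 or submandibular mesenchyme replicate 3. The ERBB receptor genes Erbb4 and Erbb2 were called in mesenchyme alone, with log2 fold changes of 2.93 and 1.30. In Erbb2 the 95% interval in epithelium, -0.09 to 0.59 on the log2 scale, excluded a 2-fold difference, and in Erbb4 (-2.15 to 0.06) it did not. Tgfa, a further EGF receptor ligand, ran the other way: 10.3, 12.9, 19.6 and 21.4 CPM in parotid and 3.6, 2.9, 3.18 and 4.95 CPM in submandibular epithelium, with all mesenchymal libraries at or below 1.42 CPM. Its interaction call (2.53, edgeR adjusted p = 0.037) was lost when replicate 3 or 4 of parotid epithelium, replicate 3 of parotid mesenchyme, replicate 1, 2 or 3 of submandibular epithelium, or replicate 1 or 4 of submandibular mesenchyme was left out, with adjusted p up to 0.10 in edgeR. Among the EDA genes, Edar, the receptor of ectodysplasin, read 36.3, 33.2, 37.7 and 38 CPM in parotid and 17, 17.3, 15.4 and 17.7 CPM in submandibular epithelium, and 0.268, 0.384, 0.434 and 0.14 against 3.27, 4.19, 3.77 and 2.12 CPM in mesenchyme. Parotid libraries were all higher in epithelium and all lower in mesenchyme (log2 fold changes 1.11 and -3.41, edgeR adjusted p = 5.5e-08). The related receptor gene Eda2r was 18.1-fold lower in parotid mesenchyme (0.107 to 1.03 against 7.95 to 12.4 CPM), with 2.96 to 5.11 and 2.01 to 3.45 CPM in the epithelia. Their ligand gene Eda was 2.16-fold higher in parotid mesenchyme (35.8 ± 13.9 against 16.6 ± 3.18 CPM). In epithelium it was not called (3.3 ± 0.671 against 5.11 ± 0.935 CPM).

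**Figure D3:**
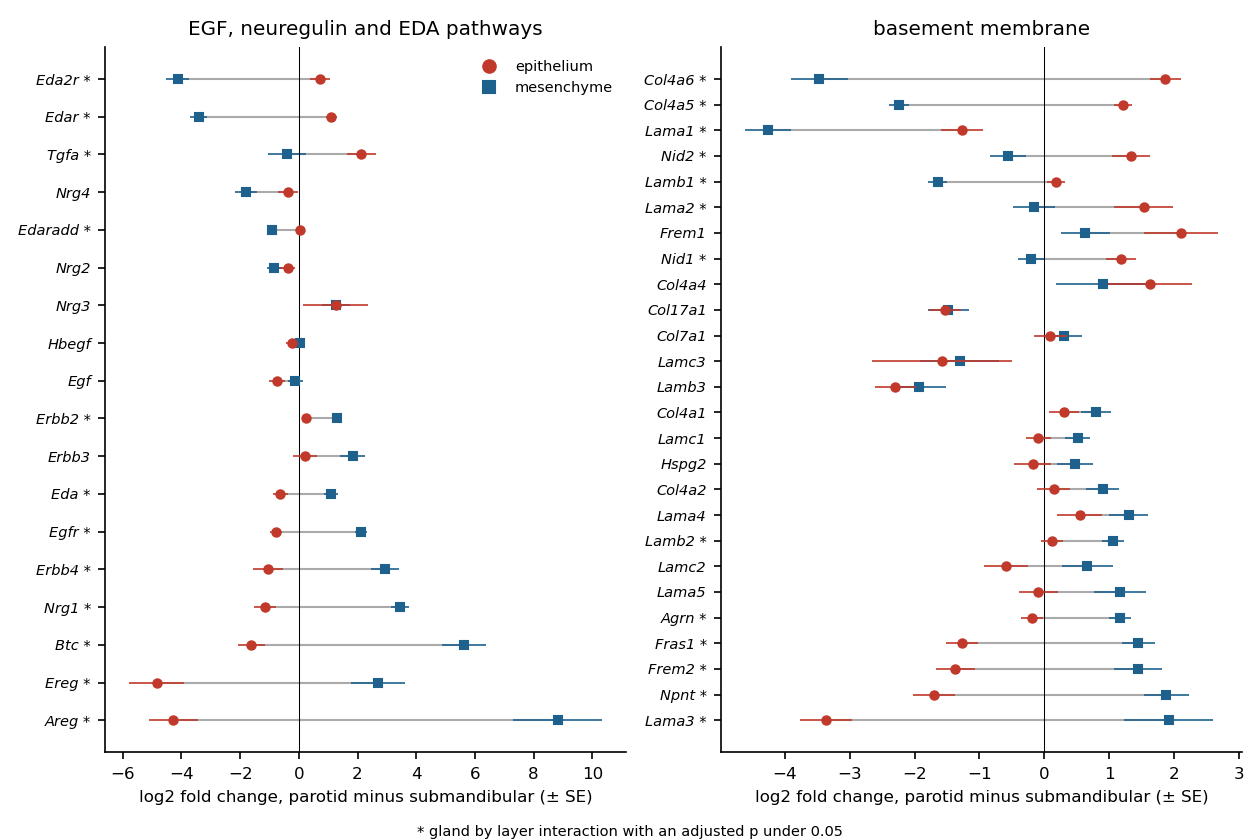
Log2 fold changes of parotid over submandibular gland (x axis, ± SE) in epithelium (circles) and mesenchyme (squares) for the 18 EGF, neuregulin and EDA genes and the 26 basement membrane genes tested, ordered by the interaction. Asterisks mark the 12 and 13 genes called for the interaction. Areg, at the bottom of the left panel, has the widest gap between the layers, at -4.27 and 8.83.

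In the basement membrane, the sheet of collagen IV, laminin and associated proteins between the layers, 7 of 26 tested genes were higher and 6 lower for the interaction (median -0.43), and 6 were opposite (8.67%, 12.2% and 2.65% over all genes). The collagen IV chains alpha 5 and alpha 6, which assemble together, went one way. Col4a6 (chrX:141165403-141474076) read 167, 233, 230.3 and 222 CPM in parotid and 42.4, 49.98, 51.8 and 89.9 CPM in submandibular epithelium, and 1.07, 0.438, 0.237 and 0.187 against 5.62, 4.59, 4.54 and 5.83 CPM in mesenchyme. Col4a5 (chrX:141475385-141689234) read 213, 269, 299 and 279 CPM in parotid and 90.7, 106, 109.9 and 151 CPM in submandibular epithelium, and 11.5, 11.2, 13.7 and 10.3 against 60.2, 58.3, 58.4 and 45.2 CPM in mesenchyme. For both genes every parotid library was higher in epithelium and lower in mesenchyme. The log2 fold changes were 1.86 (SE 0.24) and -3.47 (SE 0.44) in Col4a6, and 1.21 (SE 0.14) and -2.24 (SE 0.15) in Col4a5, with edgeR adjusted p for the interaction of 7e-07 and 1.5e-08. Npnt, Fras1, Frem2 and Lama3 went the other way. Npnt, an integrin ligand of the basement membrane, read 27.1, 38.5, 28.8 and 38.2 CPM in parotid and 91.4, 98.9, 145 and 95.7 CPM in submandibular epithelium, and 32.1, 36.4, 24.3 and 9.06 against 4.65, 5.24, 10.1 and 7.73 CPM in mesenchyme. Parotid levels of Npnt were all lower in epithelium and mostly higher in mesenchyme, where parotid replicate 4 fell within the submandibular range (log2 fold changes -1.70 and 1.88, edgeR adjusted p = 8.5e-05). Fras1 and Frem2, which form the Fraser complex that anchors epithelium to the underlying tissue, were respectively 2.41-fold and 2.59-fold lower in parotid epithelium and 2.73-fold and 2.72-fold higher in parotid mesenchyme, where Frem2 groups overlapped (1.96 to 8.25 against 1.65 to 2.5 CPM). Lama3, the laminin chain of anchoring filaments, was 10.4-fold lower in parotid epithelium (2.02 to 2.46 against 14.96 to 35.1 CPM). Its mesenchymal levels were low and overlapped, at 0.219 to 1.72 and 0.0499 to 0.306 CPM, and the opposite call was lost without parotid mesenchyme replicate 1, the library with most epithelial transcripts, or submandibular mesenchyme replicate 2 or 3. Lama1, a laminin chain of early basement membranes, was lower in the parotid in both layers, by 2.4-fold in epithelium (23.6 ± 7.94 against 56.8 ± 20.7 CPM) and 19.2-fold in mesenchyme (3.8 ± 2.12 against 72.7 ± 12 CPM). Lamb1 was lower in parotid mesenchyme alone (366 ± 51.2 against 1143 ± 129.9 CPM), with a 95% interval of -0.12 to 0.48 on the log2 scale in epithelium. The linker gene Nid1 was higher in parotid epithelium alone (24.4 ± 5.78 against 10.7 ± 3.84 CPM, interval in mesenchyme -0.65 to 0.25).

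Of 32 BMP and TGF-beta genes, 10 were higher and 7 lower (median -0.28) and 3 opposite, against shares of 8.67%, 12.2% and 2.65% over all genes tested. Besides Fst, the ligand gene Gdf5 was opposite, at 7.84, 2.63, 5.89 and 8 CPM in parotid and 0.503, 1.69, 0.159 and 2.31 CPM in submandibular epithelium, and 0.644, 0.603, 1.66 and 2.24 against 8.07, 4.69, 3.51 and 13.1 CPM in mesenchyme. Gdf5 shares 936 exon bases with the antisense gene Gm15557, which unstranded reads cannot tell apart, and its opposite call was lost without submandibular epithelium replicate 1. Bmp3, an antagonistic BMP, was 141-fold higher in parotid mesenchyme (106 to 242 against 0.549 to 2.12 CPM), with at most 2.65 CPM in any epithelial library. Bmp7, a ligand made by both layers, was 6.94-fold lower in parotid mesenchyme (23.3 ± 5.3 against 161 ± 23.2 CPM) and at 206 ± 35.1 and 167 ± 28.6 CPM in the epithelia. The BMP target genes Id1 and Id3 encode inhibitors of helix-loop-helix factors. Id1 read 3.31, 3.05, 4.34 and 5.78 CPM in parotid and 93.7, 48.6, 89.4 and 51 CPM in submandibular epithelium, and 62.6, 60.4, 57.5 and 54.3 against 48.2, 62, 45.9 and 74.3 CPM in mesenchyme. The epithelial groups lay 17.2-fold apart, whereas the mesenchymal ones overlapped, with a 95% interval of -0.44 to 0.50 on the log2 scale. Id3 was opposite, at 46.9 ± 13.5 against 175 ± 46.5 CPM in epithelium and 306 ± 28.6 against 139.7 ± 38.2 CPM in mesenchyme (edgeR adjusted p = 5.6e-06). Inhbb, an activin subunit that follistatin binds, was 8.26-fold higher in parotid epithelium (5.55 to 13 against 0.371 to 1.43 CPM), with an interval of -0.51 to 0.79 in mesenchyme.

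Among 9 FGF ligand genes tested, 1 was higher, 2 were lower (median -0.13) and 2 were opposite; of 16 receptor and response genes, 2 were higher and 5 lower (median -0.46). Over all genes 8.67% were higher, 12.2% lower and 2.65% opposite, so the ligands' counts of 1 and 2 called members lie near the background. Fgf9, an epithelial FGF that acts on mesenchyme, read 34.6, 31.8, 25.1 and 28.7 CPM in parotid and 72, 58.6, 75.2 and 65.2 CPM in submandibular epithelium, and 4.99, 1.7, 4.54 and 1.21 against 0.459, 0.899, 1.5 and 1.52 CPM in mesenchyme. Parotid levels of Fgf9 were below the submandibular ones in epithelium without overlap, and mostly above them in mesenchyme, where the groups overlapped and were low. Fgf7, a mesenchymal FGF that acts on epithelium, was 2.53-fold lower in parotid mesenchyme (18.2 to 25 against 44.7 to 63.6 CPM). In epithelium it stood at 0.141 to 1.93 and 0.0719 to 0.33 CPM, and the opposite call was lost when replicate 3 or 4 of parotid or replicate 1, 2 or 3 of submandibular epithelium was left out. The receptor gene Fgfr3 read 1.19, 1.31, 0.896 and 1.4 CPM in parotid and 22, 14.4, 23.8 and 13 CPM in submandibular epithelium, and 2.84, 2.63, 2.53 and 2.52 against 0.51, 0.599, 1.08 and 0.762 CPM in mesenchyme. Parotid libraries were all lower in epithelium and all higher in mesenchyme (log2 fold changes -3.93 and 1.82, edgeR adjusted p = 2.3e-08). It shares 998 exon bases with G630022F23Rik on the other strand. Fgf13, an intracellular member of the family, was called in mesenchyme alone (35.9 ± 9.05 against 6.21 ± 2.57 CPM).

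For WNT, 1 of 13 ligand genes was higher and 3 lower (median -2.18), 1 of 18 modulators was higher and 5 lower (median -0.66), and 4 of 14 response genes were higher and 2 lower (median 0.24). The shares over all genes were 8.67% higher and 12.2% lower, and 1 higher gene in a list of 13 or 18 lies near or under them. Wnt4 read 25.1, 27.1, 38.4 and 32.1 CPM in parotid and 59.1, 61.7, 108 and 52.1 CPM in submandibular epithelium, and 9.55, 8.82, 8.57 and 1.87 against 0.357, 0.649, 1.45 and 0.327 CPM in mesenchyme. The groups did not overlap, but the opposite call was lost when any library of parotid epithelium or submandibular epithelium replicate 1, 2 or 3 was left out. Wnt7b was 21.7-fold lower in parotid epithelium (1.7 to 3.81 against 30.5 to 114 CPM) and at 0.931 to 3.38 and 1.28 to 2.12 CPM in the mesenchymes. Sostdc1, a secreted WNT and BMP antagonist, read 11.6, 13.4, 15.5 and 10.8 CPM in parotid and 90.3, 70.8, 107 and 58.7 CPM in submandibular epithelium, and 27.7, 21.4, 23.5 and 17.8 against 7.2, 6.09, 6.25 and 3.92 CPM in mesenchyme. Its libraries lay apart in both layers, with log2 fold changes of -2.67 (SE 0.20) and 1.94 (SE 0.21). Sfrp1, a secreted decoy of WNT ligands, was the reverse: 739.9 ± 135 against 469.6 ± 135 CPM in epithelium and 313 ± 78.6 against 916 ± 66.5 CPM in mesenchyme. The opposite call of Sfrp1 was lost when replicate 2, 3 or 4 of parotid or replicate 1 or 3 of submandibular epithelium was left out. The response genes Axin2 and Tcf7 were higher in parotid epithelium, by 5.24-fold (9.84 to 22 against 2.73 to 4.4 CPM) and 3.12-fold (20.3 to 31.5 against 6.74 to 11.3 CPM), and were not called in mesenchyme (95% intervals 0.02 to 0.97 and -0.21 to 0.80).

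In the Notch pathway, which signals between touching cells, 7 of 18 tested genes were lower for the interaction (median -0.87), against 12.2% of all genes. Jag1, a Notch ligand, read 52.7, 84.8, 95.6 and 79 CPM in parotid and 87.5, 103, 115 and 133 CPM in submandibular epithelium, and 167, 245, 218 and 156 against 39.2, 32.9, 35.6 and 43.8 CPM in mesenchyme. It was 5.2-fold higher in parotid mesenchyme without overlap, with an epithelial interval of -0.87 to -0.11. The target gene Hes1 was opposite, at 91.4 ± 12.5 against 153 ± 18.9 CPM in epithelium and 36.7 ± 4.89 against 21 ± 4.08 CPM in mesenchyme (edgeR adjusted p = 2.8e-05). The receptor genes Notch2 (-0.84 and 1.12 on the log2 scale) and Notch1 (-0.70 and 0.69) were opposite as well. Notch1 lost the call when replicate 1, 3 or 4 of parotid epithelium, 1 or 2 of parotid mesenchyme, 3 or 4 of submandibular epithelium, or 1 of submandibular mesenchyme was left out, and 1482 of its exon bases overlap other genes.

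Retinoic acid is made from vitamin A by retinol and retinal dehydrogenases and broken down by CYP26 enzymes; 9 of 19 tested genes of the pathway were higher and 2 lower (median 0.49), against 8.67% and 12.2% of all genes. Rdh10, the enzyme of the first step, read 90.3, 83.2, 124 and 129.8 CPM in parotid and 11.9, 15.8, 15.3 and 23.8 CPM in submandibular epithelium, and 70.5, 70.5, 82.5 and 78 against 147, 220.3, 195 and 224 CPM in mesenchyme. Parotid libraries were all higher in epithelium and all lower in mesenchyme, with log2 fold changes of 2.67 (SE 0.19) and -1.38 (SE 0.19; edgeR adjusted p = 5.2e-08 for the interaction). The retinol uptake gene Stra6 was higher in parotid epithelium alone (66 ± 6.18 against 29.9 ± 13.3 CPM, interval in mesenchyme -0.72 to 0.20). Cyp26a1, which degrades retinoic acid, was lower in parotid mesenchyme alone (2.47 ± 0.531 against 12.3 ± 7.56 CPM, interval in epithelium -0.86 to 0.58).

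The positions of opposite genes were examined after their values had been seen. Of the 935 tested genes that directly neighbour an opposite gene in GENCODE vM21, 46 (4.92%) were opposite too, against 2.65% of all genes placed. They formed 26 pairs. In 25 of these pairs both genes moved the same way, and in 2 of the pairs their exons overlap. In 5 pairs the genes lie head to head within 2000 bases, namely Ctns and Shpk, Snhg18 and Sema5a, 5930412G12Rik and Fzd10, Gm16675 and Irf2, and Col4a6 and Col4a5. Such pairs were not counted among all neighbouring tested genes, so the 5 have no background. For Sema5a and Irf2 the 250 bases before the RefSeq start (GRCm38.p6, plus strand) are shown because they hold the stretch between the starts of both genes of the pair, which is in capitals: chr15:32244563-32244812 for Sema5a and chr8:46739495-46739744 for Irf2.
Sema5a promoter: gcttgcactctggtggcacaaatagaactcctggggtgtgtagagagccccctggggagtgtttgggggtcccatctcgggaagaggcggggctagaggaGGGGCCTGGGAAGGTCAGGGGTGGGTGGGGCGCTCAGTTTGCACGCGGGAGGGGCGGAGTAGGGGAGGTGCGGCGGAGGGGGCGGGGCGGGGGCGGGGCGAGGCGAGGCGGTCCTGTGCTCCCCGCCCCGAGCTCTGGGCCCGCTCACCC
Irf2 promoter: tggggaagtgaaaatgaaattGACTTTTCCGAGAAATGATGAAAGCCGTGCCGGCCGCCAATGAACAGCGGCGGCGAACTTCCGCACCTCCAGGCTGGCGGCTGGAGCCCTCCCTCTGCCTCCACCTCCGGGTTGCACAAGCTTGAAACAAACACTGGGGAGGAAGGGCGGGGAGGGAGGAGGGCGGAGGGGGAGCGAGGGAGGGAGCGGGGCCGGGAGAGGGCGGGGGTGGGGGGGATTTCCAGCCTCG
The capitals hold 150 bases for Sema5a and 229 for Irf2, with a GC content of 72.0% and 65.2% over the printed stretch, against a median of 52.4% in all promoters, and none of the 5 motifs matched either. Sema5a, a semaphorin that guides axons and vessels, read 69.2, 107, 83.9 and 79.9 CPM in parotid and 117, 129, 151 and 245 CPM in submandibular epithelium, and 158, 138, 177 and 239.6 against 54.5, 58.6, 60.9 and 68.2 CPM in mesenchyme. Its partner Snhg18, a noncoding host of small nucleolar RNA, read 20.4, 18.8, 17.1 and 15.8 CPM in parotid and 27.1, 23.2, 21.3 and 25.6 CPM in submandibular epithelium, and 44.2, 38.4, 45.9 and 58.5 against 26.4, 23, 25.4 and 23.1 CPM in mesenchyme. Both were lower in parotid epithelium and higher in parotid mesenchyme (interaction -2.47 and -1.36), without overlap in either layer. The smaller epithelial gap of Snhg18 was not called when replicate 3 or 4 of parotid or replicate 1 or 4 of submandibular epithelium was left out. Irf2, an interferon regulatory factor, read 4.03, 3.42, 4.48 and 4.34 CPM in parotid and 11.3, 11.6, 15.3 and 10.1 CPM in submandibular epithelium, and 10.3, 11.3, 8.65 and 8.54 against 6.43, 5.89, 5.37 and 7.62 CPM in mesenchyme. The noncoding Gm16675 across from it followed the same order at levels near 0, with at most 0.0424 CPM in parotid and 0.36 to 0.955 CPM in submandibular epithelium, and 0.355 to 1.26 against 0.051 to 0.206 CPM in mesenchyme. Pcdh7 (chr5:57717967-58133230), a protocadherin of cell adhesion, read 13.3, 12.2, 15.1 and 12.3 CPM in parotid and 47.3, 49.2, 55.6 and 50.9 CPM in submandibular epithelium, and 189, 307, 288 and 383 against 54.1, 28.7, 33.9 and 31.3 CPM in mesenchyme. Within its span lie 13 tested features, of which 9 were opposite in the direction of Pcdh7, so 6 of the 26 pairs are of this 1 locus. Unspliced reads of Pcdh7 cannot be told apart from these features.

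Genes called in 1 layer were split by what the other layer allows. Of the 440 genes of at least 2-fold in epithelium alone, 190 (1.04% of genes tested) were present in mesenchyme with a 95% interval that excluded a 2-fold gland difference there. Another 108 (0.594%) were near absent from mesenchyme, under 1 CPM in both glands, and in the remaining 142 the interval was wider. Those higher in the parotid numbered 188, of which 113 had a higher mean in both mesenchymes than in either epithelium, and those lower numbered 252, of which 85 did. Among the bounded genes, Gata2 (chr6:88193891-88207032), a zinc finger factor, read 10.6, 24.1, 21.6 and 12.9 CPM in parotid and 0.108, 0.0403, 0.477 and 0.257 CPM in submandibular epithelium, and 6.17, 8.71, 3.87 and 4.25 against 3.57, 6.34, 5.94 and 8.28 CPM in mesenchyme. The epithelial libraries were far apart and the mesenchymal ones overlapped (log2 fold changes 6.35, SE 0.54, and -0.07, 95% interval -0.86 to 0.71). Tmem45a, a transmembrane protein gene, and Clmp, which encodes an adhesion molecule of tight junctions, were 12.1-fold and 10.4-fold higher in parotid epithelium, with intervals of -0.52 to 0.28 and -0.22 to 0.32 in mesenchyme. Clmp read 17, 13.9, 16.3 and 20.4 CPM in parotid and 1.26, 1.49, 2.02 and 1.72 CPM in submandibular epithelium, and 105, 106, 109 and 146 against 113, 118, 108 and 109.8 CPM in mesenchyme, so its highest levels were mesenchymal in both glands. On the lower side, Tbx1 (chr16:18580979-18590671), a T-box factor of the pharyngeal region, read 0.0424, 0, 0.189 and 0.241 CPM in parotid and 11.2, 11.9, 26.4 and 8.1 CPM in submandibular epithelium, and 7.14, 6.36, 6.67 and 2.57 against 4.19, 4.54, 5.94 and 6.59 CPM in mesenchyme. Its parotid epithelial libraries were at or near 0 while the mesenchymes overlapped (interaction -6.98, SE 0.82, edgeR adjusted p = 3.3e-06). Hpgd (chr8:56294585-56321043), which inactivates prostaglandins, read 6.66, 7.37, 5.18 and 6.84 CPM in parotid and 156, 157, 145 and 156 CPM in submandibular epithelium, and 17.8, 10.8, 7.62 and 9.15 against 14.4, 8.49, 10.3 and 12.1 CPM in mesenchyme. The 23.6-fold epithelial gap stood beside a mesenchymal interval of -0.45 to 0.44. Depp1, a gene induced by FOXO factors, was at 0 to 0.235 CPM in parotid and 1.49 to 3.78 CPM in submandibular epithelium, and overlapped in mesenchyme (11.2 to 24 and 10.1 to 20.7 CPM).

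Genes near absent from mesenchyme were mostly lower in parotid epithelium (84 of 108). Higher ones were led by Il33, an alarmin cytokine gene, at 190.1, 66.4, 189 and 184 CPM in parotid and 5.75, 5.72, 4.03 and 6.67 CPM in submandibular epithelium, and by the homeobox gene Dbx2, at 59.3 ± 13.2 against 9.34 ± 1.99 CPM. Lower ones were led by keratin genes. Krt4, a keratin of stratified mucosa, had 2 counts over the parotid epithelial libraries against 37.2, 45.7, 37.5 and 47.1 CPM in submandibular epithelium, 1830.2 times higher there (95% exact counting interval 506 to 15117). Krt6a, a keratin of stratified and wounded epithelia, read 0.297 to 0.563 against 27.7 to 49.2 CPM, and Dapl1, a gene of epithelial differentiation, 0.0943 to 0.563 against 13.2 to 34.9 CPM. In these 3 genes the mesenchymal side of the contrast rests on a few counts, and the interaction call was lost without parotid mesenchyme replicate 1, with edgeR adjusted p of 0.99, 0.21 and 0.055. That library enters only the mesenchymal side. All 8 called members of 13 duct and basal progenitor genes had a lower interaction (median -2.63), as did all 6 called of 12 genes of stratified oral epithelium (median -3.49). Over all genes tested 12.2% were lower and 8.67% higher, with a median of -0.04. In epithelium, 9 of the 13 and 9 of the 12 genes were lower in the parotid and 0 were higher, against 9.72% and 11.2% of all genes. In mesenchyme 2 and 4 were higher and 1 of each list was lower, against 20.8% and 13.7% of all genes. Krt19, of ducts, read 4.67 to 9.43 CPM in parotid and 62.6 to 113 CPM in submandibular epithelium, and Krt15, of basal cells, 67 to 118 and 796 to 2606 CPM. Krt15 reached 18.4 CPM in parotid mesenchyme replicate 1 against at most 2.08 CPM in the others of that group, and its interaction call was lost without that library (adjusted p = 0.15 in edgeR). Kit, the receptor of stem cell factor, was 2.25-fold lower in parotid epithelium (33 to 44.8 against 68.3 to 115 CPM) with a mesenchymal interval of -0.25 to 0.50. Some of these genes were opposite through higher levels in parotid mesenchyme. Dsc3, a desmosomal cadherin, read 2.33, 1.22, 1.13 and 1.4 CPM in parotid and 10.3, 16.2, 26 and 13.9 CPM in submandibular epithelium, and 4.35, 5.53, 2.37 and 2.24 against 0, 0.0999, 0.0516 and 0.381 CPM in mesenchyme. Scel, of cornified envelopes, read 0 to 0.297 against 5.16 to 15.01 CPM in epithelium and 0.822 to 2.15 against 0 to 0.109 CPM in mesenchyme, and Krt7 3.47 to 7.59 against 26.5 to 41.2 and 0.316 to 0.966 against 0 to 0.109 CPM. Krt5, of basal cells, was opposite as well (0.118 to 4.24 against 0 to 0.436 CPM in mesenchyme), a call lost on leaving out any library except parotid mesenchyme replicate 3 or 4, submandibular epithelium replicate 2 or 3, or submandibular mesenchyme replicate 4. The part of epithelial RNA in parotid mesenchyme replicate 1 in these differences was not tested beyond leaving that library out.

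Several transcription factor genes differed mainly in epithelium. Tlx1, a homeobox factor, had 2 counts over the parotid epithelial libraries against 68.7, 62.4, 65.9 and 73.3 CPM in submandibular epithelium, 2948 times higher there (95% exact counting interval 816 to 24346), and read 0.316 to 1.49 and 1.02 to 2.01 CPM in the mesenchymes. The LIM homeobox gene Isl1 was at 0.0938 to 0.626 CPM in parotid and 12.6 to 33.1 CPM in submandibular epithelium, and Tbx3 at 0.891 to 4.01 and 51.2 to 93.3 CPM. In mesenchyme Isl1 (1.18 to 2.9 and 1.05 to 2.29 CPM) and Tbx3 (251 to 354 and 177 to 199.6 CPM) were not called between the glands, although the intervals did not exclude a 2-fold difference. Osr1, a zinc finger factor of intermediate mesoderm and mesenchyme, was 7.39-fold higher in parotid epithelium (31.2 ± 9.49 against 4.22 ± 0.894 CPM), and stood at 334 ± 33.2 and 423 ± 41.8 CPM in the mesenchymes (95% interval -0.72 to 0.04). Foxp2, a forkhead factor, was opposite, at 53, 64.9, 49.4 and 68.2 CPM in parotid and 18.5, 12.4, 28.7 and 10.5 CPM in submandibular epithelium, and 17.8, 15.3, 11.1 and 12.9 against 31, 38.8, 38.5 and 46.6 CPM in mesenchyme, with no overlap in either layer. The TALE homeobox gene Meis2 was opposite by smaller amounts (0.91 and -0.51 on the log2 scale, edgeR adjusted p = 1.7e-06), whereas its paralog Meis1 was 2.69-fold lower in parotid mesenchyme alone (epithelial interval -0.49 to 0.28). Meis1 shares 1925 exon bases with other genes.

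In mesenchyme, 524 of the 1061 genes (2.88% of genes tested) were present in epithelium with an interval that excluded a 2-fold difference there, 322 (1.77%) were near absent from epithelium and 215 had a wider interval. Parotid mesenchyme was higher in 620 and lower in 441. Col14a1 (chr15:55307750-55520803), a fibril-associated collagen, read 207, 241, 175 and 171 CPM in parotid and 178, 221, 205 and 335 CPM in submandibular epithelium, and 205, 237, 276 and 321 against 3.88, 4.59, 4.65 and 5.06 CPM in mesenchyme. Submandibular mesenchyme alone was low: the log2 fold change was 5.84 (SE 0.20) in mesenchyme, with an epithelial interval of -0.61 to 0.13. Met (chr6:17463800-17573980), the receptor of hepatocyte growth factor, read 29, 31.3, 24.5 and 25.3 CPM in parotid and 34.8, 31.4, 41.4 and 34.5 CPM in submandibular epithelium, and 145, 151, 218 and 189.5 against 5.67, 2.35, 6.19 and 4.25 CPM in mesenchyme. It was highest in parotid and lowest in submandibular mesenchyme (edgeR adjusted p = 4.2e-09 for the interaction). Cpne8, a calcium-dependent membrane-binding copine, was 39.9-fold higher in parotid mesenchyme (74.4 ± 16.8 against 1.87 ± 0.424 CPM), with an epithelial interval of -0.04 to 0.59. On the lower side, Rbm47 (chr5:66016549-66173118), an RNA-binding protein gene, read 40.5, 42.1, 43.3 and 37.8 CPM in parotid and 31.7, 32.3, 39.8 and 39.3 CPM in submandibular epithelium, and 1.61, 1.21, 0.869 and 0.42 against 29.3, 22.8, 23 and 29.6 CPM in mesenchyme. Parotid mesenchyme alone was low, 25.5-fold under submandibular mesenchyme. Plxnc1, a semaphorin receptor gene, was 16.4-fold lower (5.74 ± 1.28 against 93.9 ± 8.72 CPM) and Hlf, a PAR bZIP factor, 15.8-fold lower (1.45 ± 0.781 against 22.8 ± 5.82 CPM), with epithelial intervals of -0.18 to 0.90 and -0.41 to 0.62.

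**Figure D4:**
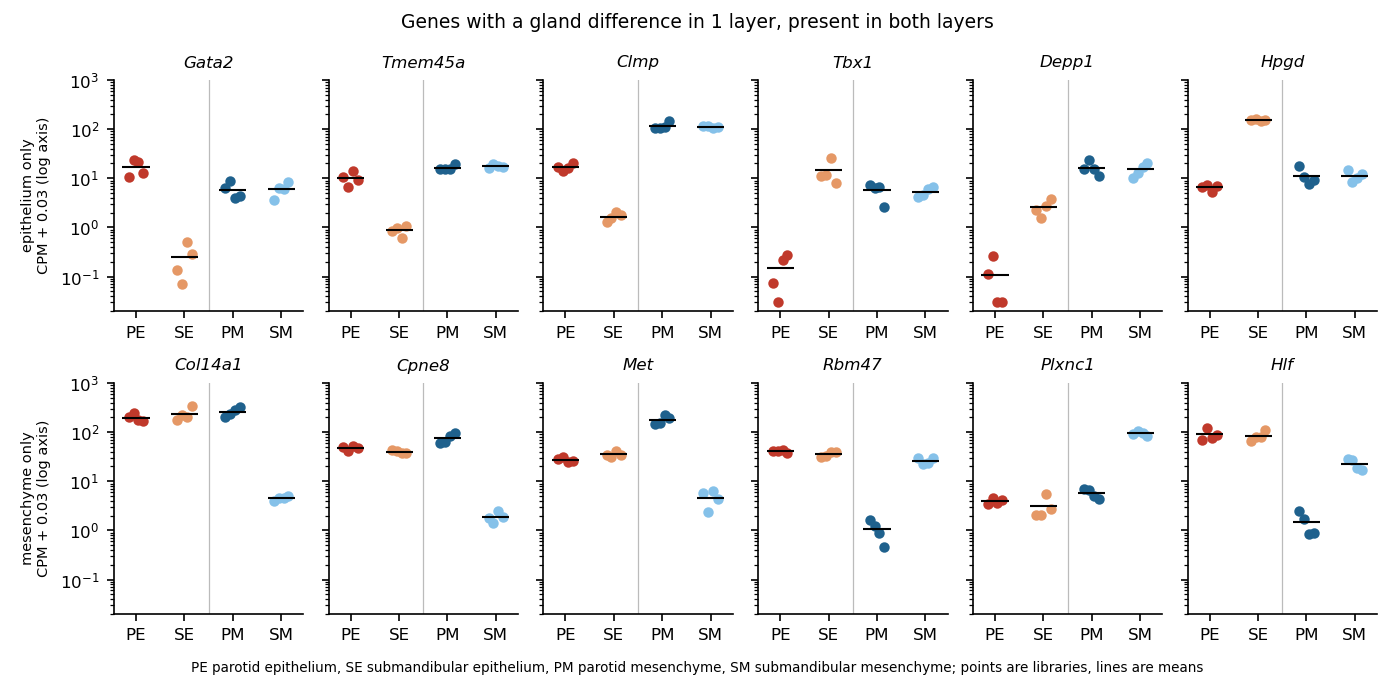
CPM of the 6 genes of epithelium alone (upper row) and the 6 of mesenchyme alone (lower row) whose 95% interval excluded a 2-fold gland difference in the other layer; points are libraries, lines are means, and the log axis shows CPM after adding 0.03. The groups lie apart to the left of each divider in the upper row and to the right of it in the lower row.

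Near absent from epithelium and higher in parotid mesenchyme were Hrh1, a histamine receptor gene, at 23, 33.1, 32 and 48.9 CPM against 2 counts in all in submandibular mesenchyme (1337 times higher, 95% exact counting interval 370 to 11049), and Mgat4c, a glycosyltransferase gene (13.6 to 52.6 against 0.051 to 0.436 CPM). The noncoding Pantr1 read 62.8, 29.9, 35.1 and 16.8 CPM in parotid mesenchyme, likewise against 2 counts in all. Its interaction was called at adjusted p = 0.032 in edgeR and was not called without submandibular epithelium replicate 3 or any library of submandibular mesenchyme. Lower in parotid mesenchyme were Acan, the cartilage proteoglycan aggrecan (11.4, 21.9, 16.9 and 26.7 CPM in submandibular mesenchyme against 3 counts in all in parotid mesenchyme) and the lipid synthesis gene Gpat3 (0 to 0.187 against 7.35 to 20.4 CPM). Of the 3502 exon bases of Gpat3, 1311 overlap 4930458D05Rik on the other strand or Gm42987, which unstranded reads cannot tell apart. Neuronal markers summed to 1759 to 2874 CPM in parotid and 167 to 410 CPM in submandibular mesenchyme, and to 8.99 to 33.4 CPM in epithelium. The list did not move as one. In mesenchyme, 9 of 17 neuronal genes tested were higher and 6 lower in the parotid, against 20.8% and 13.7% of all genes. The part of neurons in the mesenchymal differences was not tested.

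Guidance, adhesion and matrix lists were examined in the same way. Of 44 axon guidance and neurotrophic genes, 19 were lower and 5 higher (median -0.67), and of 17 classical cadherins, which join like cells, 6 were lower (median -1.04), against 12.2% lower and 8.67% higher over all genes. Sema3c, a secreted semaphorin, read 110.3, 66.6, 86.7 and 139 CPM in parotid and 94.5, 71.4, 131 and 53.6 CPM in submandibular epithelium, and 413, 659, 732 and 769 against 22.8, 17.8, 21.9 and 12.6 CPM in mesenchyme. It was 34.3-fold higher in parotid mesenchyme, and the epithelial interval was -0.41 to 0.81. Slit2, a repulsive guidance ligand, was 3.49-fold higher in parotid mesenchyme alone (199 ± 28.9 against 56.9 ± 19.97 CPM, epithelial interval -0.59 to 0.65). Cdh8 read 72.9, 97.1, 123 and 152 CPM in parotid against 0.51, 0.549, 0.826 and 0.599 CPM in submandibular mesenchyme, and Cdh9 and Cdh12 were 82.8-fold and 23-fold higher there. All 3 were at or under 2.66 CPM in every epithelial library. Cdh10 was higher in the parotid in both layers, by 21.7-fold in mesenchyme and 3.11-fold in epithelium (0.675 to 1.31 against 0.147 to 0.524 CPM). Of 30 interstitial matrix genes, 10 were lower and 1 was higher (median -0.56); Sparc, a collagen-binding glycoprotein gene, was 2.02-fold higher in parotid mesenchyme (1302 ± 137 against 644 ± 38 CPM) with an epithelial interval of -0.52 to -0.03. Alx4, a homeobox factor of craniofacial and limb mesenchyme, was lower in parotid mesenchyme (3.73 to 9.93 against 167 to 221 CPM); its interaction was not called without parotid epithelium replicate 2 (adjusted p = 0.17 in edgeR).

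The 204 genes with unequal differences in the same direction included 155 higher and 49 lower in the parotid. Plcb1, a phospholipase C gene, read 49, 48.4, 48.5 and 56.5 CPM in parotid and 2.52, 3.14, 2.86 and 2.31 CPM in submandibular epithelium, and 53.1, 40, 35.2 and 41.7 against 23.3, 19.5, 23.6 and 24.4 CPM in mesenchyme. The parotid excess was 18.7-fold in epithelium and 1.87-fold in mesenchyme, without overlap in either layer. Tbx2, a T-box factor, was 14.5-fold higher in parotid epithelium and 1.8-fold higher in parotid mesenchyme (157 ± 14.6 against 86.9 ± 13 CPM). Weighted to mesenchyme were Cxcl14, a chemokine gene, at 159, 144, 184 and 88.5 CPM in parotid against 0.153, 0.2, 0.413 and 1.09 CPM in submandibular mesenchyme and 1.92 to 5.64 against 0.443 to 1.11 CPM in epithelium, and the POU factor gene Pou3f3 at 38.7 to 65.3 against 0.0999 to 0.255 CPM in mesenchyme. The interaction of Pou3f3 was not called without submandibular epithelium replicate 3 or 4 (adjusted p up to 0.17 in edgeR). Sox9, a factor of epithelial progenitors and cartilage, was 16.4-fold higher in parotid mesenchyme (155 ± 34.8 against 9.45 ± 1.45 CPM) and 1.49-fold higher in parotid epithelium (712 ± 76.5 against 476 ± 124 CPM).

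By a rule added after the data had been seen, 353 genes (1.94%) were higher in epithelium in one gland and in mesenchyme in the other. The layer difference was called in both glands, with no limit on its fold. In 214 of the 353 the libraries of the layers did not overlap in either gland. The same share was not computed over all genes tested, so the 214 have no background. Of the 353, 164 were epithelial in the parotid and 189 in the submandibular gland, and 119 were also opposite. Rxfp1, a relaxin receptor gene, had 3 counts over the parotid epithelial libraries and read 70.6, 37.6, 64.9 and 48.9 CPM in submandibular epithelium, 2.04, 3.23, 4.3 and 5.55 CPM in parotid and 0.306, 0.0999, 1.86 and 0.327 CPM in submandibular mesenchyme. Its higher layer was the epithelium in the submandibular gland and the mesenchyme, at a lower level, in the parotid. Syndig1, a synaptic transmembrane protein gene, was the reverse, at 51.8, 25.8, 35.6 and 39.8 CPM in parotid and 22.8, 22.6, 28.4 and 26.7 CPM in submandibular epithelium, and 6.17, 2.25, 6.08 and 2.85 against 161, 130.0, 116 and 108 CPM in mesenchyme. In the parotid all epithelial libraries of Syndig1 lay above the mesenchymal ones, and in the submandibular gland all lay below. Of the opposite genes described above, Slc6a14, Pthlh, Areg, Ereg, Btc, Egfr, Rdh10, Foxp2, Fgfr3, Thsd4, Hspb1, Rgs5, Dsc3, Gdf5, Gm16675, Irf2, Pcdh7, Scel, Sema5a, Sfrp1 and Sostdc1 also switched layer by this rule, and so did Acan, Cpne8, Eda2r, Gata2, Gpat3, Hpgd, Isl1, Jag1, Met, Sema3c, Tbx1 and Tlx1, which were not opposite. Acan and Gpat3 were near absent from both epithelia, at 0.899 and 0.515 CPM in parotid and 0.998 and 0.896 CPM in submandibular epithelium. Their parotid layer difference rests on 3 and 6 counts in all in parotid mesenchyme.

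Markers of other cell types moved with the contrast in part. Of 17 endothelial genes, 7 were higher and 1 was lower (median 2.21), a count of higher genes that ran from 4 to 10 when each library was left out and was 4 when replicate 4 of parotid epithelium or replicate 2 of submandibular epithelium was left out. Their summed level was 76.4 to 107 CPM in parotid and 32.4 to 60.9 CPM in submandibular epithelium, against 833 to 1290 CPM in parotid and 972 to 1308 CPM in submandibular mesenchyme. Ets1, a factor of endothelium and other cells, was 2.63-fold higher in parotid epithelium (75.5 ± 8.51 against 28.7 ± 10.6 CPM). It made up most of the mean sums of 94.3 and 43.8 CPM in the epithelia. There 5 and 4 of the 17 genes averaged at least 1 CPM. In epithelium 8 of the 17 were higher and 1 was lower in the parotid, against 11.2% and 9.72% of all genes. Tek, the angiopoietin receptor, was 3.27-fold lower in parotid epithelium (0.96 ± 0.772 against 3.14 ± 1.06 CPM). Emcn, a defining endothelial sialomucin, had 1 count in all in submandibular epithelium and 0 to 1.06 CPM in parotid epithelium. Of 12 macrophage and leukocyte genes, 4 were higher, which became 0 to 6 when each library was left out and moved by over 1.5 times in all fits except those without parotid epithelium replicate 2 or replicate 1, 2 or 3 of submandibular epithelium. They summed to 23.5 to 35.4 CPM in parotid and 3.77 to 12.4 CPM in submandibular epithelium. Of 16 skeletal muscle genes 3, and of 10 smooth muscle and pericyte genes 4, were lower for the interaction. Over all genes tested 8.67% were higher and 12.2% lower, so the 3 of 16 skeletal muscle genes lie near the background. Skeletal muscle genes summed to 475 to 2014 CPM in parotid and 205 to 435 CPM in submandibular mesenchyme. The part of these cells in the differences of other genes was not tested.

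**Figure D5:**
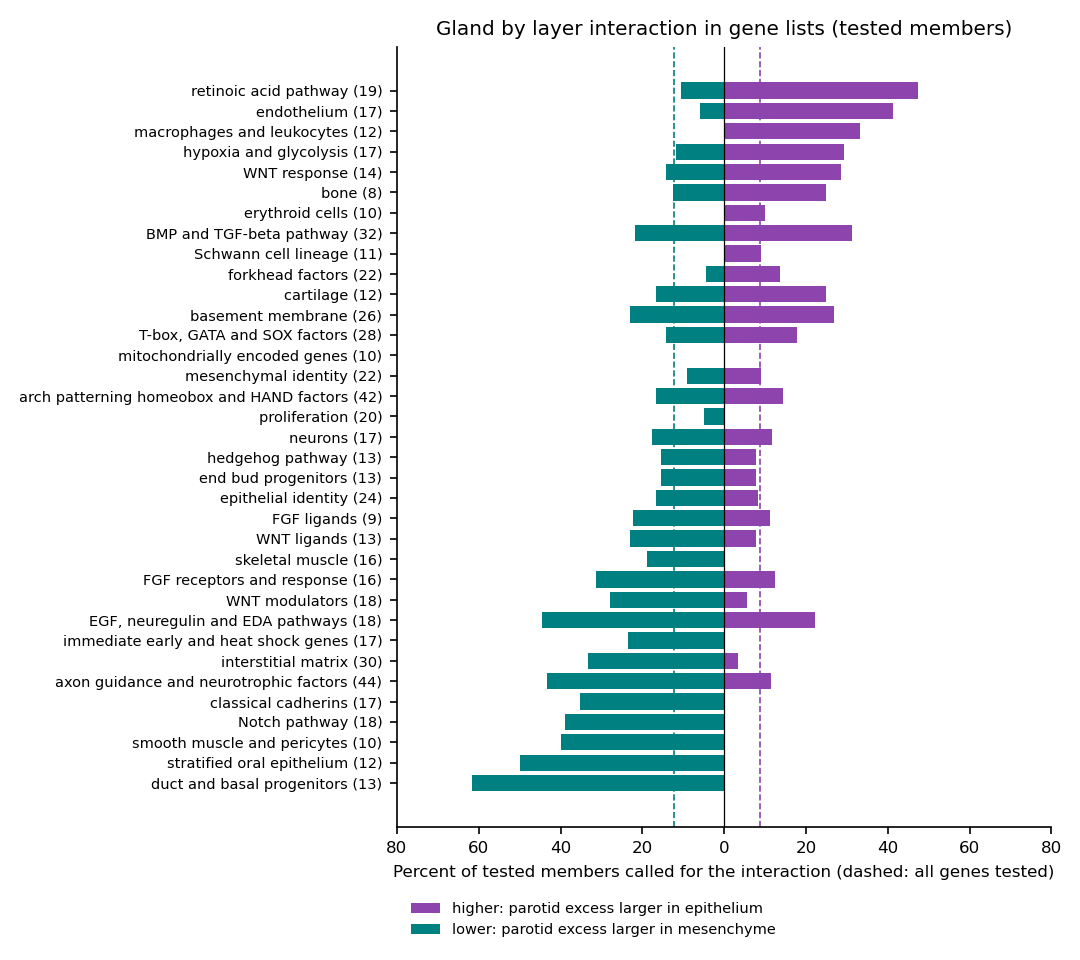
Percent of the tested members of each gene list (number in brackets) called for the interaction, to the right where the parotid excess was larger in epithelium and to the left where it was larger in mesenchyme; dashed lines mark 8.67% and 12.2%, the shares over all genes, and lists with under 8 tested members are left out. Retinoic acid and endothelial genes reach furthest to the right, and duct and basal progenitor and stratified oral genes furthest to the left.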

How the data were processed

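RNA of the 16 samples was made into cDNA with a full-length kit (SMART-Seq v4) and libraries that do not mark strand (Nextera XT), per the labels' protocols. Reads were aligned with STAR 2.5.2a, with GRCm38/mm10 named as build, per the submitters' processing notes. For the counting step, software and annotation were not given in the sources used here. As raw data, the authors deposited read counts for 48709 genes and 92 spike-in features. The spike-ins were left out, and the authors' filtered and normalized tables were not used. Counts were scaled by TMM (factors 0.926 to 1.09) and kept by filterByExpr at default settings, which left 18191 genes with at least 99.88% of each library's gene counts. All 4 groups entered 1 fit of edgeR 4.0.16 (quasi-likelihood, robust) in R 4.3.3, and each contrast was adjusted over all 18191 genes by the Benjamini-Hochberg method. The 95% intervals are Wald intervals of the fitted log2 fold changes, and fold values are ratios of mean CPM. Intervals on ratios of counts are exact and cover counting error only. P-values measure the spread between samples within a group. A gene was opposite where the interaction and both gland differences were called with opposite signs. It was of 1 layer where the interaction and only that layer's gland difference were called, the latter by at least 2-fold. Named genes needed at least 10 CPM in a group and glands that did not overlap in the layers called. The 5 opposite genes, 3 genes of each 1-layer class and 2 of the same direction with the largest differences were taken in each direction, with up to 4 called genes per list. A gene named by this rule is not reported here. The genes and the 36 lists (671 genes, 601 tested) were chosen with earlier results of these data known. Symbols were found for 48349 genes. Positions are from GENCODE vM21 (GRCm38) and promoters from RefSeq (GRCm38.p6), which held 80 of the 116 genes looked up. Alternatives were RLE size factors, no scaling factor, other filters and class limits, DESeq2 1.42.0, limma-voom 3.58.1, a replicate block and leaving out libraries. The fit was tested on simulated data.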

Additional observations from a re-analysis of the deposited data

Results flagged for a closer look

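A difference of the gland effect between the layers was found by the interaction test in 3799 genes, and in 482 of them the effects had opposite signs.

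Among 405 groups of 4 libraries checked for the genes and marker lists of the text, 32 (7.90%) held 1 library whose gap to the nearest other passed Dixon's 95% critical value, where chance gives about 5%. Values are CPM, with the range of the other 3 libraries in brackets.

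In parotid epithelium, replicate 4 was high in Rgs5 at 8.10 (0.707 to 1.78), in Plcb1 at 56.5 (48.4 to 49) and in the erythroid sum at 495 (59.7 to 119). Replicate 1 was low in Thsd4 at 3.99 (5.91 to 6.27) and high in Egfr at 41.8 (33.2 to 34.2). Replicate 2 was low in Eda2r at 2.96 (4.76 to 5.11) and in Il33 at 66.4 (184 to 190.1). Replicate 3 was low in Notch2 at 14.99 (22.4 to 22.4) and high in Krt19 at 9.43 (4.67 to 5.30).

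In submandibular epithelium, replicate 3 stood apart most often. It was high in Erbb4 at 1.75 (0.766 to 0.863), Npnt at 145 (91.4 to 98.9), Meis2 at 268 (244 to 247), Krt7 at 41.2 (26.5 to 26.9), Krt5 at 223 (67.0 to 86.0) and Tbx2 at 5.68 (1.15 to 1.54), and low in Hpgd at 145 (156 to 157). Replicate 2 was high in Rgs5 at 22.3 (9.34 to 11.1). Replicate 4 was high in Lama1 at 87.9 (45.0 to 47.8) and in the sum of bone markers at 46.3 (30.1 to 31.3).

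In parotid mesenchyme, replicate 4 was low in Wnt4 at 1.87 (8.57 to 9.55), Inhbb at 4.01 (7.12 to 7.30) and Tbx1 at 2.57 (6.36 to 7.14). It was high in Tmem45a at 19.1 (15.2 to 15.5), Clmp at 146 (105 to 109) and the sum of cartilage markers at 340.1 (317 to 319). Replicate 1 was high in Krt15 at 18.4 (0.0395 to 2.08) and in the sum of epithelial markers at 83.0 (33.5 to 37.3).

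In submandibular mesenchyme, replicate 1 was high in Fst at 13.0 (7.73 to 8.59), replicate 3 in Hspb1 at 6.09 (3.50 to 3.78) and replicate 4 in Lama1 at 90.5 (64.6 to 69.0). Replicate 4 was low in Col4a5 at 45.2 (58.3 to 60.2) and replicate 2 in Ets1 at 159 (173 to 174).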

How the results depend on the processing

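The interaction was called in 3757 genes with RLE size factors, 4444 with DESeq2 and 3773 with limma-voom. Without a scaling factor 2380 genes were higher and 1599 lower. With no filter beyond 1 count, opposite genes lower in parotid epithelium fell to 180 of 352 opposite genes. With a filter of 1 CPM in 4 libraries they were 252 of 501, and the epithelial genes near absent from mesenchyme fell to 60. With near absence set at 0.5 CPM the epithelial genes near absent from mesenchyme numbered 71 and the mesenchymal ones near absent from epithelium 210. With the interval held to 1.5-fold the bounded classes numbered 54 and 220. Asking for 2-fold in both layers left 189 opposite genes, 117 of them lower in parotid epithelium. In alternatives chosen after seeing the data, leaving out the erythroid-rich epithelial libraries gave 295 opposite genes, 151 of them lower in parotid epithelium, and 70 epithelial genes near absent from mesenchyme. Leaving out parotid mesenchyme replicates 1 and 4 gave 1408 genes higher and 1477 lower for the interaction. When each library was left out in turn, the interaction was called in 3152 to 3922 genes (1301 to 1754 higher, 1851 to 2252 lower) and 356 to 508 genes were opposite, 202 to 277 of them lower in parotid epithelium. Genes of epithelium alone numbered 368 to 451 (160 to 208 bounded, 83 to 114 near absent), genes of mesenchyme alone 974 to 1100 (461 to 562 and 290 to 334), and genes that switched layer 304 to 363. The labels state no pairing of equal replicate numbers. Correlations of same-numbered deviations were -0.16 to -0.03 between the parotid layers and 0.04 to 0.31 between the submandibular layers. Without correlations of differently numbered samples beside them, these values cannot show whether samples were paired. With the replicate number as a block, 3871 genes were called and 500 were opposite, and no count moved by over 1.5 times. Of 246 single-gene interactions, 14 passed the threshold no longer without scaling, 41 with no filter, 35 with limma-voom, 17 with the replicate block and 14 to 30 on leaving out a library. Without parotid mesenchyme replicates 1 and 4 the number was 50, and without the erythroid-rich libraries 31. None changed sign under these settings. All 246 were taken from genes already called for the interaction in the fit described above, so signs that hold add little support. Depth limits genes with few counts in a layer, where fitted fold changes depend on the prior count.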
